A study of Homo sapiens with 18 samples.

Results

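The genes described here are 9 transcriptional targets of p53, CDKN1A, MDM2, GDF15, BBC3, BAX, FAS, SESN1, TP53I3 and ZMAT3. They were picked by gene symbol, with earlier results of these data known but by no threshold on their values, from the 38055 genes of a whole transcriptome table of HCT116 cells. HCT116 is an established human colorectal carcinoma line of epithelial cells that carries wild-type p53. All 9 genes were among the 20129 genes tested, which reached a normalized value of 10 in 3 or more of the 6 libraries, so none was lost to the filter on low values.

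The study grew wild-type (WT) HCT116 cells in McCoy's 5A medium with fetal bovine serum and took whole cell RNA on day 3, at 50% confluency, and on day 5, at 250% confluency, with 3 biological replicates per day. Both days were the same cell line with no transfection or drug named, so time in culture and cell density changed together and cannot be told apart. Whole transcriptome libraries of day 7 were also made and were not analysed here. Small RNA libraries from separate samples covered days 3, 5 and 7, with day 7 at 400% confluency in the labels. RNA was measured in all of them and protein was not, so the values say nothing of how much p53 protein the cells held.

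p53 is a transcription factor that is held at a low level by MDM2, a ubiquitin ligase that p53 itself switches on. When cells are stressed, by DNA damage, shortage of nutrients or oxygen and many other insults, p53 is stabilized largely at the protein level and binds DNA near its target genes as a tetramer. Its targets stop the cell cycle (CDKN1A), promote cell death (BBC3, BAX, FAS), restrain p53 (MDM2) and adjust metabolism and RNA (SESN1, TP53I3, ZMAT3), while GDF15 is a secreted cytokine. Several of these genes also answer to other transcription factors, so their RNA levels alone do not measure p53 activity.

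The DNA that p53 recognizes is a pair of decamers. Each has a core of the form CNNG in which both N are A or T. Matches to it near the target genes are shown here. Both strands were searched within 3000 bases of every annotated transcript start, in the hg38 assembly, for a pair of decamers with no gap, both cores intact and at most 2 mismatches to the p53 consensus outside them. The capitals below mark the cores, and each sequence is given 5′ to 3′ on the strand of the gene.
CDKN1A: gaaCATGtcccaaCATGttg
GDF15: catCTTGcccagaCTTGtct
FAS: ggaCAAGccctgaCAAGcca
ZMAT3: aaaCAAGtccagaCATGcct
The CDKN1A match lay at chr6:36676449-36676468 on the + strand, within an annotated exon and 2 bases before the nearest transcript start. The GDF15 match lay in an intron at chr19:18385308-18385327 (+), 841 bases before the nearest transcript start. The FAS match lay in an exon at chr10:88991309-88991328 (+), 30 bases after the nearest start, and the same bases read on the other strand are 13 bases after a start of ACTA2, a smooth muscle actin gene that runs the opposite way. The ZMAT3 match lay in an intron at chr3:179070188-179070207 on the − strand, 1368 bases after the nearest start, and was the only one of the 4 with 0 mismatches.

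Matches of this kind were found for 4 of the 9 genes, against 1394 of 19288 tested genes with an annotated locus (7.23%). Because every transcript start was searched, genes with many annotated starts offered more sequence: the median was 16199 bases for the 9 genes and 11185 for all tested genes. With up to 3 mismatches the counts were 8 of 9 and 35.8% of all tested genes. With up to 1 mismatch they were 1 of 9 and 1.255%, and with 0 mismatches 1 of 9 and 0.254%. The limit of 2 mismatches was set after matches had been seen, so these counts are given as a description only. The 4 genes with a match did not share a direction between the days. CDKN1A and GDF15 were higher on day 5, FAS was lower, and ZMAT3 did not pass the test, as given below. A match describes these letters only and is not evidence of binding in these cells. Pairs with a gap or a changed core were not searched for, so a gene with no match may still hold a p53 element.

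The 6 whole transcriptome libraries held 27470978 to 56689369 reads on genes, and day 3 included both the deepest and the shallowest library. By a chi-square of read counts per gene, pairs of day 3 libraries differed more (11.1 to 22.0) than pairs of day 5 libraries (4.1 to 5.5). That measure also grows with depth. The fit used a common variance per gene for both days. The deposited values are read counts divided by a factor per library, here called normalized values, and fold changes are differences in log2(value + 1) with their standard errors. Between day 3 and day 5, 56.9% of the 20129 tested genes passed an adjusted p of 0.05 (limma with Benjamini-Hochberg adjustment), 29.3% higher and 27.6% lower on day 5, and the median log2 fold change was 0.01. A p-value here sets the difference between the days against the spread between these replicates of one cell line. Epithelial markers were detected at high levels, with EPCAM at a mean of 7227 on day 3 and 7236 on day 5, and 4 of the 5 such markers examined passed as higher on day 5, among them CDH1 by 2.63 and KRT19 by 1.98 on the log2 scale. PTPRC, CD3E, DCN and ALB, markers of leukocytes, T cells, fibroblasts and liver, were below the filter, and COL1A2, of fibroblasts, had means of 19.9 and 15.5. Of the 3 tested markers of other cell types, 2 passed as higher at low levels, VWF of endothelium, from 14.1 to 32.1 (log2 difference 1.14, adjusted p = 0.0414, limma), and the smooth muscle actin ACTA2, from 64.7 to 149. In bulk RNA such as this, fewer cells of a kind and less RNA per cell cannot be told apart.

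Of the 9 target genes, 3 were higher on day 5 (GDF15, BBC3 and CDKN1A), 2 were lower (FAS and SESN1) and 4 did not pass the test (BAX, MDM2, ZMAT3 and TP53I3). The shares were 33.3% higher and 22.2% lower, beside 29.3% and 27.6% of all tested genes, and the same 3 and 2 genes had libraries that did not overlap between the days, beside 33.4% and 31.7% of all tested genes. The median log2 fold change was 0.02 beside 0.01. As a group these 9 genes therefore moved about as often as genes at large, and in both directions. The differences lie between the single genes, from a 4.53-fold rise of GDF15 to a level of FAS at 0.555 of that on day 3. The panels of normalized values by library show these 9 genes.

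**Figure D1:**
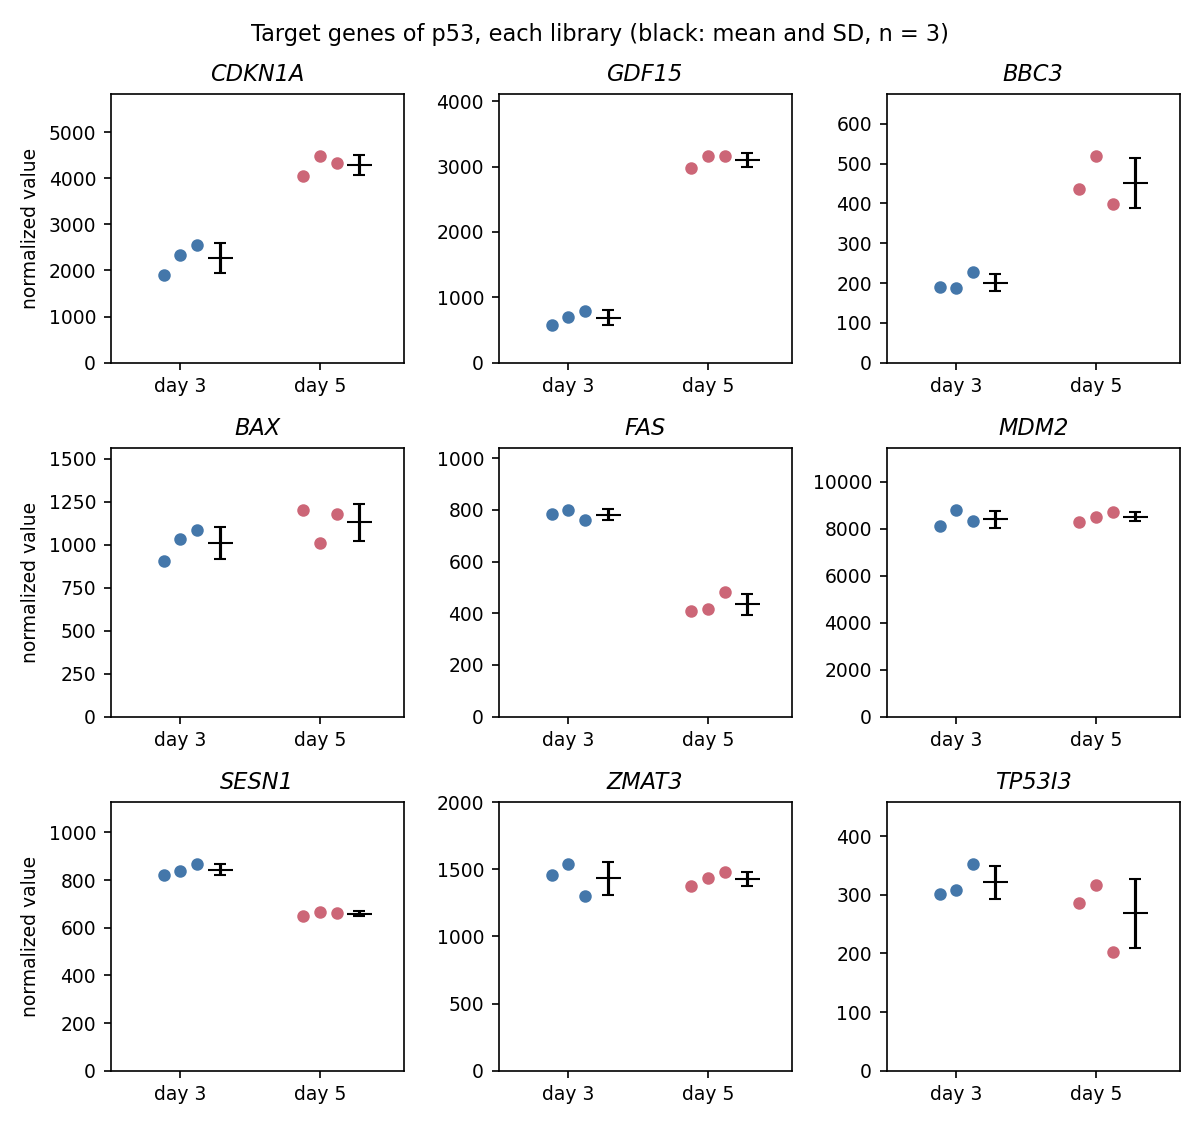
Normalized value (linear axis from 0) of the 9 target genes in each of the 3 day 3 libraries (blue) and 3 day 5 libraries (red), with the mean and SD (n = 3) in black. CDKN1A, GDF15 and BBC3 had all 3 day 5 libraries above all 3 day 3 libraries, FAS and SESN1 had them all below, and BAX, MDM2, ZMAT3 and TP53I3 overlapped.

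MDM2 (ENSG00000135679, chr12:68808177-68845544, +), the ubiquitin ligase that directs p53 to degradation and is its best known feedback target, had values of 8111, 8822 and 8320 on day 3 and 8316, 8522 and 8709 on day 5. The days overlapped and the means, 8418 ± 366 and 8516 ± 197 (SD, n = 3), lay within the spread of the replicates. The log2 difference was 0.02 ± 0.07 (SE; adjusted p = 0.856, limma). The related inhibitor MDM4, which binds p53 without degrading it, had values of 6629, 6876 and 6280 on day 3 and 7031, 7460 and 7167 on day 5. Its libraries did not overlap, as was the case for 65.0% of all tested genes, but its log2 difference of 0.13 ± 0.08 did not pass the test (adjusted p = 0.191, limma). The phosphatase PPM1D (WIP1), a target that switches the p53 response off, had means of 1563 ± 150 and 1546 ± 54.2 and a log2 difference of -0.01 ± 0.10 (adjusted p = 0.924, limma). None of these 3 inhibitors passed the test.

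CDKN1A (ENSG00000124762, chr6:36676460-36687337, +) encodes p21, the inhibitor of cyclin-dependent kinases through which p53 arrests the cell cycle. It had values of 1911, 2339 and 2543 on day 3 and 4047, 4492 and 4330 on day 5. Every day 5 library was well above every day 3 library. CDKN1A rose 1.91-fold, by 0.93 ± 0.13 on the log2 scale (adjusted p = 0.00141, limma), and by 0.81 to 1.02 with each library left out in turn. Over the 6 libraries, TMEM51 was among the 3 genes with the pattern most like CDKN1A, out of 12714 tested genes with a mean value of at least 100, with a Pearson r of 0.999 on the log2 scale. TMEM51 rose by 0.96 (adjusted p = 0.00183, limma). With 3 libraries on each side, such a correlation is set mainly by the difference between the days, and it is given as a description.

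GDF15 (ENSG00000130513, chr19:18374731-18389176, +) encodes a secreted cytokine of the TGF-beta family that is induced by p53 and by several other stress pathways. Its values were 572, 705 and 795 on day 3 and 2976, 3168 and 3169 on day 5. The lowest day 5 library was several times the highest day 3 library. GDF15 rose by 2.18 ± 0.13 on the log2 scale (adjusted p = 0.000191, limma), the most of the 9 genes. Of all tested genes, 10.2% passed the test as higher with a rise of at least 2-fold.

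The genes that promote cell death went different ways. BBC3 (ENSG00000105327, chr19:47220822-47232766, −), which encodes the BH3-only protein PUMA, had values of 190, 187 and 227 on day 3 and 435, 520 and 399 on day 5. No day 3 library reached the lowest of day 5, and BBC3 rose 2.23-fold, by 1.16 ± 0.13 on the log2 scale (adjusted p = 0.000842, limma). BAX (ENSG00000087088, chr19:48954815-48961798, +), which forms pores in the mitochondrial outer membrane, had values of 904, 1034 and 1084 on day 3 and 1204, 1009 and 1177 on day 5. One day 5 library of BAX lay below 2 of day 3, and the log2 difference of 0.17 ± 0.11 did not pass the test (adjusted p = 0.257, limma).

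FAS (ENSG00000026103, chr10:88953813-89029605, +), the cell surface death receptor for FAS ligand, had values of 784, 801 and 760 on day 3 and 408, 416 and 480 on day 5. All day 5 libraries were below all day 3 libraries. FAS fell by 0.85 on the log2 scale (SE 0.09, adjusted p = 0.000672, limma), and by 0.80 to 0.92 with each library left out in turn. ACTA2, whose start overlaps that of FAS on the opposite strand, was weakly expressed and moved the other way, from 64.7 ± 19.4 to 149 ± 14.9 (log2 difference 1.23, adjusted p = 0.0045, limma).

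SESN1 (ENSG00000080546, chr6:108984309-109094846, −), a sestrin that restrains mTORC1 signalling, had values of 822, 839 and 869 on day 3 and 649, 666 and 664 on day 5. All day 5 libraries lay below all day 3 libraries. SESN1 fell by 0.35 on the log2 scale (SE 0.07, adjusted p = 0.00639, limma), a smaller change than that of FAS. It passed the test with each library left out in turn but had an adjusted p of 0.0583 when all 38055 genes were fitted with no filter on low values. Its paralogs SESN2 and SESN3 had log2 differences of 0.27 (adjusted p = 0.175) and -0.15 (adjusted p = 0.331) by limma, neither past the threshold.

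TP53I3 (ENSG00000115129, chr2:24077433-24085861, −), which encodes an oxidoreductase also known as PIG3, had values of 302, 308 and 353 on day 3 and 285, 316 and 203 on day 5. Day 5 replicate 3 was the lowest of the 6 and the other libraries overlapped. The log2 difference was -0.28 ± 0.18 (adjusted p = 0.23, limma), and without day 5 replicate 3 it was -0.09. ZMAT3 (ENSG00000172667, chr3:178960121-179072215, −), a zinc finger protein that binds RNA, had values of 1457, 1542 and 1299 on day 3 and 1375, 1432 and 1482 on day 5. The day 5 libraries of ZMAT3 lay inside the range of day 3, and the means of 1433 ± 124 and 1430 ± 53.4 were nearly the same (adjusted p = 0.999, limma). The genes with the pattern most like MDM2 over the 6 libraries were NUCKS1 (r = 0.981), ZC3H13 (r = 0.98) and LIMS1 (r = 0.958), and none of them passed the test between the days.

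Levels of different genes can be compared only per length, here as RPKM, the reads of a gene divided by the length of its annotated exons in kilobases and by the depth of the library. On day 3 MDM2 was the highest of the 9 genes at 28.3 ± 2.33 RPKM (SD, n = 3), followed by CDKN1A at 20.9 ± 1.91, BAX at 10.8 ± 0.563 and GDF15 at 9.16 ± 0.96. None of these neighbours overlapped in that order. On day 5 GDF15, at 43.3 ± 1.38 RPKM, and CDKN1A, at 41.7 ± 2.2, stood first and overlapped, above MDM2 at 29.9 ± 0.415 and BAX at 12.7 ± 1.14. Lower down, TP53I3, ZMAT3 and SESN1 overlapped as neighbours on day 3, at 3.85, 3.55 and 3.23 RPKM. BBC3 was below them at 1.75 RPKM on day 3 and overlapped ZMAT3 on day 5, at 4.13 and 3.69 RPKM. FAS was the lowest on both days, at 0.744 and 0.432 RPKM. The length used is that of all annotated exons of a gene together, 29313 bases for FAS against 2996 for CDKN1A, so a gene with many annotated exons reads low on this scale.

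**Figure D2:**
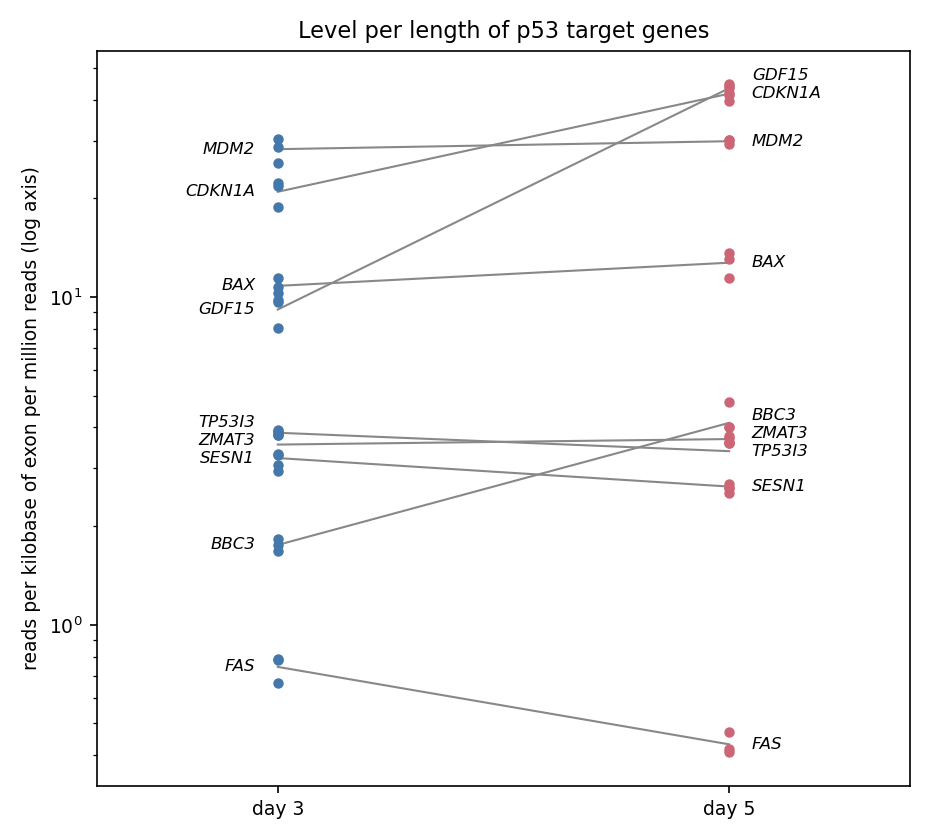
Level of the 9 target genes in RPKM, reads scaled by exon length and library depth (log axis), one point per library (day 3 blue, day 5 red), with lines joining the means of the days. GDF15 moved from 9.16 to 43.3, where it overlapped CDKN1A at 41.7, while MDM2 was at 28.3 and 29.9.

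Other genes that act on p53 were set beside these. Of 17 regulators and relatives of p53, MDM4 and PPM1D among them, 16 were tested, 6 were higher on day 5 (37.5%), 5 were lower (31.2%) and 5 did not pass, near the 29.3% and 27.6% of all tested genes, and the median log2 fold change was -0.04. The kinase HIPK2, which phosphorylates p53, rose most, by 1.51 ± 0.13, from 3514 ± 558 to 9892 ± 193 (adjusted p = 0.00037, limma). The acetyltransferases CREBBP and EP300, coactivators of p53, rose by 1.16 and 1.06, and the p53 family member TP73 by 1.00 (adjusted p = 0.000239, 0.000224 and 0.00121, limma). CHEK1, a kinase of the DNA damage checkpoint, fell by 0.97 on the log2 scale, and RCHY1, another ubiquitin ligase of p53, fell by 0.95 (adjusted p = 0.000281 and 0.000319, limma). The checkpoint kinases ATR and CHEK2 fell by 0.94 and 0.59, while ATM had a log2 difference of -0.16 (adjusted p = 0.192, limma). EP300, TP73, ATR, CHEK2 and ATM, like SESN2 and SESN3 above and EPCAM, were named after their values were seen.

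A further 78 reported p53 targets, sorted by function, were taken as the wider pathway, of which 76 were in the table and 70 were tested. On day 5, 32 of the 70 were higher (45.7%), 21 were lower (30.0%) and 17 did not pass, beside 29.3% and 27.6% of all tested genes, and the median log2 fold change was 0.32 beside 0.01. Centring each library on the median of the tested genes in place of the authors' scaling gave 27 higher and 26 lower, while the share of higher genes among all called genes went from 51.5% to 39.5%, and library totals gave 37 higher and 19 lower beside a share of 56.3%. The plot of fold changes by function shows the first of these lists gene by gene.

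**Figure D3:**
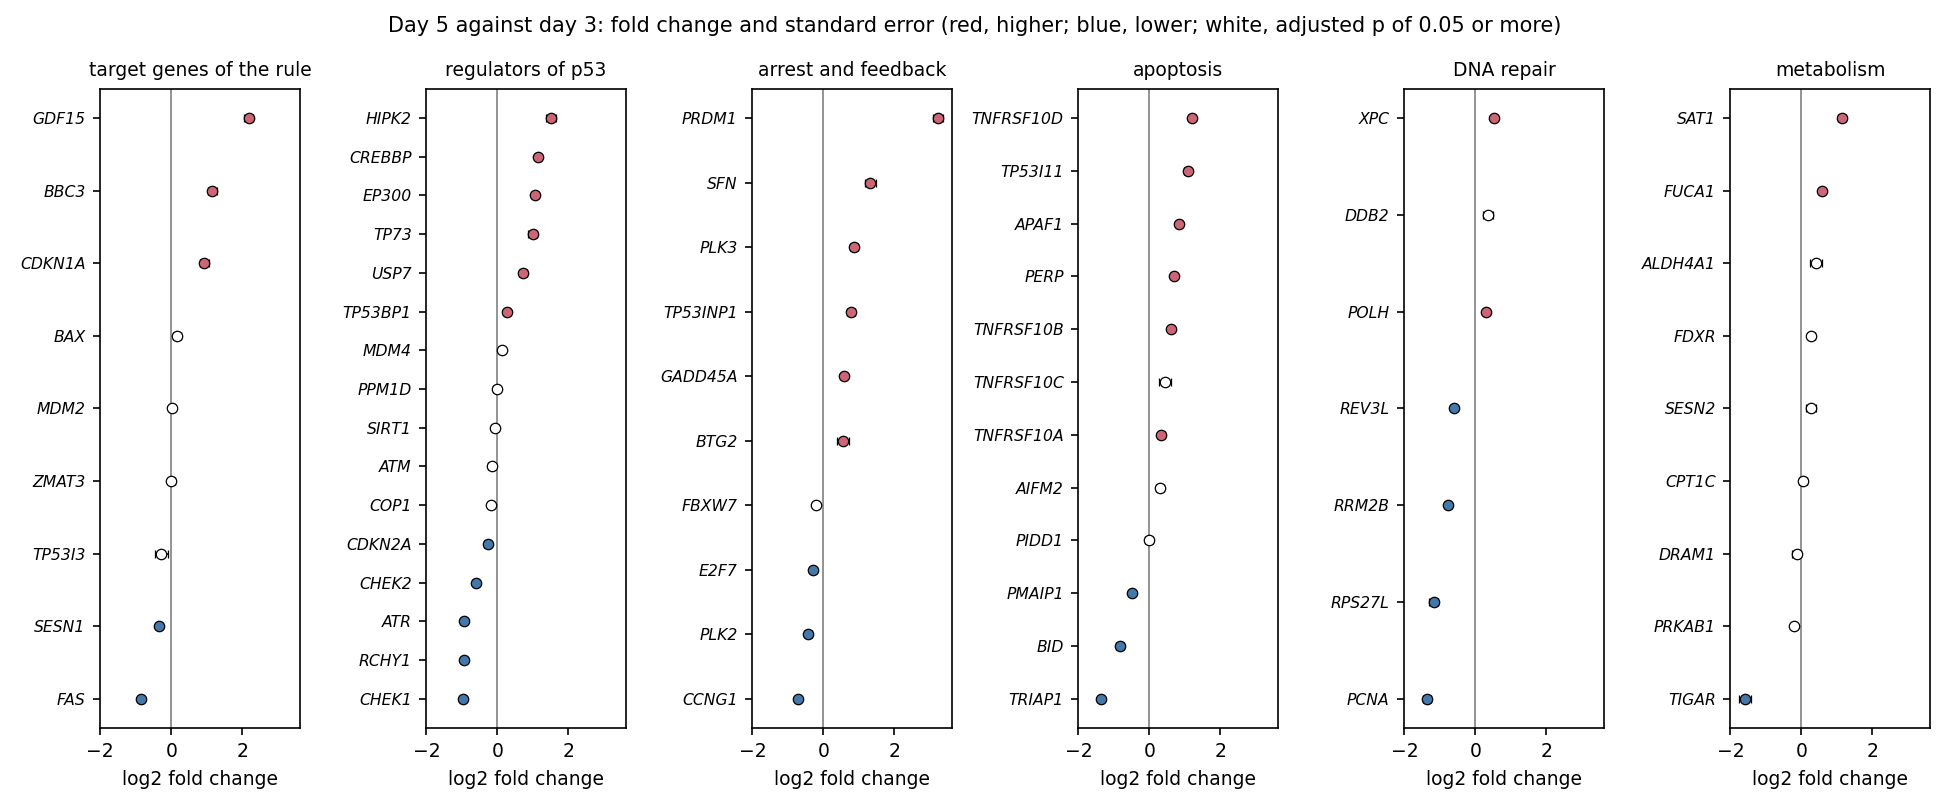
log2 fold change of day 5 against day 3 with its standard error for the 9 target genes, for the regulators of p53 and for 4 lists of other p53 targets, where red points passed an adjusted p of 0.05 as higher, blue points as lower, and white points did not pass. Each list held genes on both sides of 0, from PRDM1 at 3.22 to TIGAR at -1.59.

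Among 10 targets linked to cell cycle arrest and growth control, 6 rose (60.0%) and 3 fell (30.0%), beside 29.3% and 27.6% of all tested genes, with a median of 0.57. PRDM1, a transcriptional repressor that acts in differentiation, went from 27.1 ± 4.61 to 259 ± 1.94 and rose by 3.22, and SFN (stratifin), which holds mitotic kinases in the cytoplasm, went from 1759 ± 330 to 4355 ± 114 and rose by 1.32 (adjusted p = 0.000128 and 0.000707, limma). CCNG1, cyclin G, went from 7085 ± 48.8 to 4304 ± 184 and fell by 0.72 on the log2 scale, and the kinase PLK2 went from 4995 ± 524 to 3714 ± 184 and fell by 0.42 (adjusted p = 0.000536 and 0.0141, limma). PLK2 did not pass without day 5 replicate 2, with an adjusted p of 0.053 (limma).

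Of the 12 tested targets linked to apoptosis, 6 rose (50.0%) and 3 fell (25%), beside 29.3% and 27.6% of all tested genes, with a median of 0.39. The highest rises were of TNFRSF10D, a decoy receptor for the death ligand TRAIL, by 1.20, and of TP53I11, by 1.08 (adjusted p = 0.000258 and 0.000411, limma). TRIAP1, which protects cells from apoptosis, went from 2265 ± 166 to 884 ± 39.4 and fell by 1.35 on the log2 scale, and BID, which links death receptors to mitochondria, fell by 0.84 (adjusted p = 0.000211 and 0.00166, limma). PMAIP1, which encodes the BH3-only protein NOXA, fell by 0.50 while its functional relative BBC3 rose, and TNFRSF10B, a TRAIL death receptor, rose by 0.62 while FAS fell (adjusted p = 0.00298 and 0.00075, limma). PMAIP1 and TNFRSF10B were named after their values were seen.

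Of the 7 targets that act in DNA repair, 2 rose (28.6%) and 4 fell (57.1%), beside 29.3% and 27.6% of all tested genes, with a median of -0.61. PCNA, the sliding clamp of DNA polymerases, went from 13781 ± 1619 to 5301 ± 302 and fell by 1.37 on the log2 scale, and RPS27L, a ribosomal protein paralog, fell by 1.18 (adjusted p = 0.000294 and 0.000642, limma). XPC, which recognizes damaged DNA, rose by 0.53, and the translesion polymerase POLH rose by 0.30 (adjusted p = 0.00154 and 0.0112, limma). POLH did not pass with each library centred on its median. PCNA is also a gene of DNA replication and has processed pseudogenes, and how reads shared with such copies were assigned is not stated.

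Of the 9 tested metabolic targets, 2 rose (22.2%), 1 fell (11.1%) and 6 did not pass, beside 29.3% and 27.6% of all tested genes. SAT1, which breaks down polyamines, went from 7096 ± 951 to 15497 ± 508 and rose by 1.13, and the lysosomal fucosidase FUCA1 rose by 0.57 (adjusted p = 0.000513 and 0.00102, limma). TIGAR, a phosphatase that lowers glycolysis, went from 847 ± 104 to 283 ± 48.2 and fell by 1.59 on the log2 scale (adjusted p = 0.000535, limma). In the last list, of 32 tested targets of mixed function, 16 rose (50.0%) and 10 fell (31.2%), beside 29.3% and 27.6% of all tested genes, with a median of 0.40. The receptor tyrosine kinase EPHA2 rose by 1.56 and the retinol saturase RETSAT by 1.08, while BLOC1S2, a subunit of a lysosome positioning complex, fell by 1.34 and ISCU, the scaffold of iron-sulfur cluster assembly, fell by 1.10 on the log2 scale (adjusted p = 0.000398, 0.000516, 0.000202 and 0.00052, limma).

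**Figure D4:**
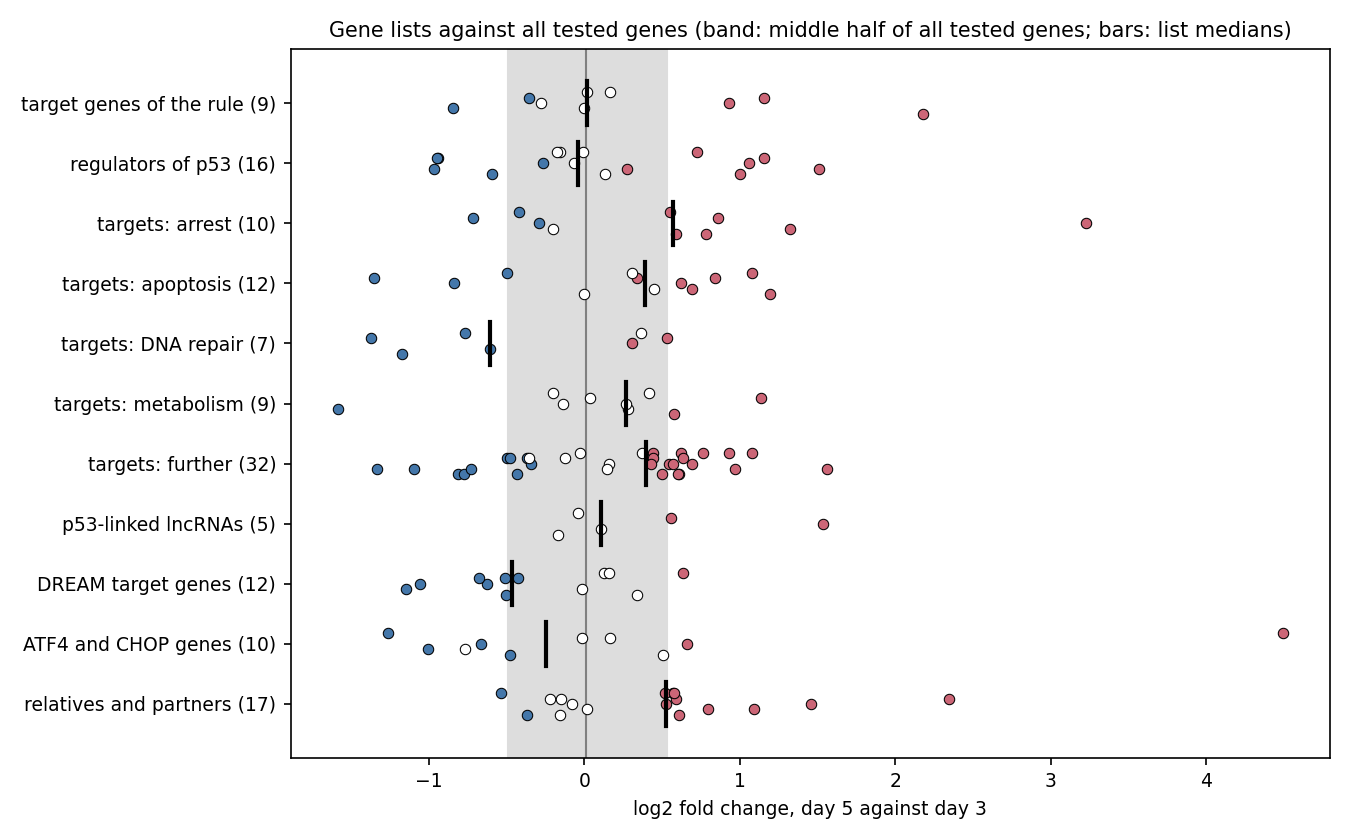
log2 fold change of day 5 against day 3 for every tested gene of 11 lists (number of genes in brackets), with red, blue and white for higher, lower and not passed, black bars for the list medians and a grey band for the middle 50% of all tested genes, from -0.49 to 0.53. The 9 target genes have a median of 0.02, the repair targets of -0.61 and the targets of the DREAM complex of -0.47.

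Of 12 cell cycle genes known as targets of the DREAM repressor complex, 1 was higher (8.33%), 7 were lower (58.3%) and 4 did not pass, beside 29.3% and 27.6% of all tested genes, with a median of -0.47. CCNB1, cyclin B, went from 13046 ± 1095 to 5874 ± 129 and fell by 1.15 on the log2 scale, and its kinase CDK1 fell by 1.06 (adjusted p = 0.000274 and 0.000337, limma). PLK1, a mitotic kinase, went from 3035 ± 435 to 4675 ± 259 and rose by 0.63 (adjusted p = 0.00637, limma). The share of cells in each phase was not measured, and any part of CDKN1A in these values was not tested.

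ATF4 and CHOP (DDIT3) are the factors of the integrated stress response, which also acts on GDF15 and BBC3, and its part in their values was not tested. Of 10 genes of that response, 2 were higher (20%), 4 were lower (40.0%) and 4 did not pass, with a median of -0.25. The shares of all tested genes were 29.3% and 27.6%. Protein was not measured, so the RNA levels of ATF4 and DDIT3 do not measure their activity. ATF4 and DDIT3 themselves fell by 0.66 and 0.48 on the log2 scale (adjusted p = 0.00274 and 0.0226, limma; both were named after their values were seen). Their amino acid synthesis targets ASNS and PSAT1 fell by 1.26 and 1.01 (adjusted p = 0.000287 and 0.00105, limma). Among the genes that did not pass, PHGDH had a log2 difference of -0.01 and TRIB3 of 0.50 (adjusted p = 0.941 and 0.058, limma). Both were named after their values were seen. PPP1R15A rose by 0.66 (adjusted p = 0.0205, limma) but not past the threshold without day 3 replicate 2, day 5 replicate 2 or day 5 replicate 3, with adjusted p from 0.0508 to 0.0636. DDIT4 (REDD1), an inhibitor of mTORC1 that p53, ATF4 and the hypoxia factors all induce, had values of 496, 493 and 529 on day 3 and 10577, 11647 and 11961 on day 5. The days were far apart, and DDIT4 rose 22.5-fold, by 4.49 ± 0.08 (adjusted p = 5.6e-05, limma), the highest rise of any listed gene.

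Relatives and partners of the 9 proteins were also read, and of 17 tested 10 rose (58.8%) and 2 fell (11.8%), beside 29.3% and 27.6% of all tested genes, with a median of 0.52. CDKN1C (p57), a relative of p21, went from 102 ± 16.9 to 518 ± 45.0 and rose by 2.35, and BOK, a relative of BAX, rose by 1.09 (adjusted p = 0.000202 and 0.00167, limma). BAD, a BH3-only protein, fell by 0.53, and CASP8, the caspase that FAS activates, fell by 0.37 (adjusted p = 0.0207 and 0.011, limma). BAD did not pass without any one of the 3 day 5 libraries, with adjusted p from 0.0504 to 0.0654. FASLG, the ligand of FAS, was below the filter, with 0 or 1 read in each library.

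Of 5 tested long noncoding RNAs linked to p53, 2 rose (40.0%) and 0 fell, beside 29.3% and 27.6% of all tested genes. NEAT1, which builds paraspeckles, went from 20161 ± 3991 to 57683 ± 2334 and rose by 1.54 (adjusted p = 0.000587, limma). MIR34AHG, the host transcript of miR-34a and weakly expressed at 30.8 on day 3 and 46.3 on day 5, rose by 0.56 (adjusted p = 0.0206, limma), and was named after its values were seen. Matches to the p53 consensus with 0 mismatches were found for 0.254% of the 19288 tested genes searched. Besides MIR34AHG, they included PLK2, which fell, and ZMAT3 and PURPL, which did not pass the test. PURPL, a long noncoding RNA of this list, had a log2 difference of 0.11 (adjusted p = 0.64, limma) and was named after its values were seen. The MIR34AHG match lay in an exon at chr1:9182144-9182163 (−), 238 bases after the nearest transcript start.
MIR34AHG: gggCTTGcctgggCTTGttc

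miRNAs that p53 induces were read from the separate small RNA libraries, whose values are on a log2 scale and were described without a test. The mature sequences are shown with the seed, bases 2 to 8, in capitals, because miR-192-5p and miR-215-5p share their seed and the seed decides which mRNAs are recognized. miR-34a-5p lies at chr1:9151735-9151756 (−), miR-192-5p at chr11:64891203-64891223 (−), miR-215-5p at chr1:220117916-220117936 (−), and miR-194-5p has 2 loci, one of them at chr1:220118206-220118227 (−), all on GRCh38.
miR-34a-5p: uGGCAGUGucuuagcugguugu
miR-192-5p: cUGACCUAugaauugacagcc
miR-215-5p: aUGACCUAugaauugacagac
miR-194-5p: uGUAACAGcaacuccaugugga
miR-34a-5p had log2 values of 8.40, 8.56 and 8.10 on day 3, 8.53, 8.71 and 8.69 on day 5 and 9.35, 9.31 and 9.28 on day 7. Days 3 and 5 overlapped, and all 3 day 7 libraries were above both, as was the case for 43.4% of the 567 miRNAs that reached a value of 10, on the linear scale, in 3 or more of the 9 libraries. From day 3 to day 7 the mean of miR-34a-5p differed by 0.96, beside a median of 0.30 over those miRNAs and an upper quartile of 0.64. miR-192-5p had means of 10.23 ± 0.28, 10.53 ± 0.09 and 10.87 ± 0.03 (SD, n = 3), miR-194-5p of 6.79 ± 0.27, 6.96 ± 0.02 and 7.60 ± 0.06, and the weaker miR-215-5p of 3.35 ± 0.46, 3.43 ± 0.16 and 3.98 ± 0.16. The libraries of days 3 and 5 overlapped for miR-194-5p and miR-215-5p. For miR-192-5p the highest day 3 value, 10.42, lay just below the lowest of day 5, 10.45. The share of all miRNAs with no overlap between these days was not counted. The day 7 mean was the highest for these 4 miRNAs and for miR-34c-5p, and the share of the 567 miRNAs with this order was not counted. From day 3 to day 7 the means differed by 0.81 for miR-194-5p, 0.64 for miR-192-5p and 0.63 for miR-215-5p. For miR-34c-5p the difference was 0.29 and for miR-34b-5p -0.08. Over the 567 miRNAs the median difference was 0.30 and the upper quartile 0.64, so miR-192-5p and miR-215-5p lay about at that quartile and miR-34c-5p about at the median. Of the other miR-34 family members, miR-34b-5p had mean log2 values of -1.36, -1.80 and -1.44, near the bottom of the scale, and miR-34c-5p of 3.66, 3.51 and 3.95. The study also made 3 whole transcriptome libraries of day 7, whose values were not analysed here, so the 9 target genes were not read at that density.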

How the data were processed

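The authors sequenced rRNA-depleted, dUTP-stranded libraries with molecular identifiers. Per the study's methods, reads were checked with FastQC (0.11.8) and MultiQC (1.7) and assigned by strand to hg38 genes in CLC Genomics Workbench with TMM. The deposited signal per gene was whole multiples of 1 read for 100% of values (within 0.02 of a read), so reads were recovered. The deposited miRNA values are on a log2 scale. For the small RNA data the study's methods name TMM normalized counts and give a range of reads per library. The exact unit of the deposited values and the depth of each single library are not given. Columns of the authors' own comparisons (fold changes and p-values) were not used, and 0 columns belonged to other samples.

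limma (3.58.1, R 4.3.3) was fitted to log2(value + 1) of the 6 libraries, for genes at 10 or more in at least 3, with Benjamini-Hochberg adjustment over all 20129 and a threshold of 0.05. The step was also run on simulated counts with far fewer changed genes than here and the same dispersion for every gene. That run does not show how the fit performs on these data. Alternatives were edgeR (4.0.16, TMM) and DESeq2 (1.42.0) on recovered reads, library totals, centring on the median, no filter, 0.1 as the pseudocount, a block for the replicate number and leaving out each library.

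The target genes, lists and tests were chosen with earlier results of these data known. Named were the 9 genes, MDM4 and PPM1D, the 2 largest rises and falls per list among genes past the threshold with no overlap and a mean of at least 100, and the 3 genes most like CDKN1A and MDM2. Genes named outside this rule are marked, and a few that it named are not reported here. SCO2, DUSP14, PANDAR, TP53COR1, DINOL and PECAM1 were not analysed here. Loci came from GENCODE 44 (GRCh38) and miRNA sequences from RefSeq (GRCh38). The limit of 2 mismatches was set after matches had been seen. Same-numbered replicates of the 2 days did not deviate together (correlations -0.01, 0.03 and 0.02), so the numbers were not taken to pair samples. Analyses used Python 3.11.15, pandas 2.3.3, numpy 2.4.6 and matplotlib 3.10.9.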

Additional observations from a re-analysis of the deposited data

How the results depend on the processing

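Of 689 values for 53 named genes under 13 alternatives, 656 kept direction and side of the threshold, 14 no longer passed and 19 changed sign. GDF15, BBC3, CDKN1A and FAS passed under all 13, and the number of target genes called higher was 3 throughout. With no filter on low values 1 of the 9 was called lower, because SESN1 had an adjusted p of 0.0583. PLK2, POLH, PPP1R15A, BAD and CASP8 were also lost with no filter (adjusted p from 0.0677 to 0.0883, limma). The sign changes were all in genes that did not pass the test. With median centring, log2 differences were -0.153 for MDM2, -0.00505 for BAX, -0.0392 for MDM4, -0.135 for NUCKS1, -0.153 for ZC3H13 and -0.0845 for LIMS1. With library totals they were 0.0664 for ZMAT3 and 0.0546 for PPM1D. Leaving out each library in turn gave -0.00899 to 0.0517 for MDM2, -0.0693 to 0.0548 for ZMAT3, -0.088 to 0.0501 for PPM1D, -0.00514 to 0.0915 for NUCKS1 and -0.0171 to 0.067 for ZC3H13. Genes called were 11450 as reported, 12270 by edgeR, 11110 by DESeq2 and 9235 with no filter. Under median centring the median log2 difference over all tested genes went from 0.01 to -0.16, and MDM2 and ZMAT3 moved with it while their adjusted p stayed above the threshold, at 0.124 and 0.21. With the replicate block, 10533 genes were called, 3 of the 9 target genes higher and 2 lower. The small differences of MDM4 and BAX did not pass in the main fit, which does not show that they are absent. With 3 libraries per day, an exact permutation test of a single gene cannot give p under 0.1.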
